A study of Mus musculus with 15 samples.

Results

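Small leucine-rich proteoglycans (SLRPs) were followed in the aortas of mice given aldosterone and high salt (Aldo-salt) with gonadal androgen present, removed or replaced. The genes were the 9 whose symbols were *Dcn*, *Bgn*, *Aspn*, *Lum*, *Fmod*, *Omd*, *Prelp*, *Ogn* and *Podn*, taken by symbol from 24982 gene symbols. All 9 were among the 14121 genes with enough reads to test. Whole aortas came from 10-month-old male WT C57BL/6 mice (the strain as labelled, C57BL/6J in the study's text), 5 per group and 1 library per mouse. The control group had a sham operation, the orchiectomy group had the testes removed, and the third group had an orchiectomy and a dihydrotestosterone (DHT) pellet. DHT is the androgen made from testosterone by 5α-reductase. After 2 weeks of recovery all 3 groups received aldosterone at 200 µg/kg per day by osmotic minipump and drinking water with 0.9% NaCl and 0.2% KCl, and aortas were taken on day 7. Every group thus carried Aldo-salt, and no group without it was analysed here. A whole aorta holds the smooth muscle of the media, the endothelium and what was left of the adventitia after cleaning. Markers of adipocytes, skeletal muscle, mesothelium and leukocytes were also read in these libraries.

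SLRPs are secreted proteins of the extracellular matrix with a core of leucine-rich repeats, and many carry chondroitin, dermatan or keratan sulfate chains. They bind collagen fibrils and shape how fibrils grow and pack, they hold growth factors such as TGF-β in the matrix, and soluble forms can act on receptors of innate immunity. In the vessel wall decorin and lumican come largely from adventitial fibroblasts, whereas biglycan is also made by smooth muscle. Decorin (*Dcn*), biglycan (*Bgn*) and asporin (*Aspn*) form the first class of the family. Lumican (*Lum*), fibromodulin (*Fmod*), osteomodulin (*Omd*, also called osteoadherin) and *Prelp* form the second, osteoglycin (*Ogn*, also called mimecan) belongs to the third, and podocan (*Podn*) stands on a separate branch.

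Several of the 9 genes lie side by side in the mouse genome (GRCm38/mm10, GENCODE M21). *Dcn* (chr10:97479609-97518143) and *Lum* (chr10:97565128-97572703) are neighbors on the plus strand of chromosome 10, 46984 bases apart. *Aspn* (chr13:49544443-49567565), *Omd* (chr13:49582462-49592822) and *Ogn* (chr13:49608046-49624501) follow each other on the plus strand of chromosome 13 with gaps of 14896 and 15223 bases. *Prelp* (chr1:133910304-133921414, minus strand) and *Fmod* (chr1:134037254-134048277, plus strand) are 115839 bases apart, and *Bgn* (chrX:73483602-73495933, plus strand) and *Podn* (chr4:108014791-108096445, minus strand) stand alone. Whether the authors counted by strand was not stated, and *Prelp* shares 350 exon bases (9.68% of its exons) with the antisense gene *Gm15851*, so reads in that stretch cannot be assigned to either gene with certainty. *Aspn* shares 7 exon bases with *Cenpp* on the other strand, and the other 7 genes share no exon base with another gene.

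Because the groups differed in androgen, the 250 bases before the transcription start were searched for the hexamer AGAACA, the core that androgen and glucocorticoid receptors recognize, for the full palindromic androgen response element (the hexamer and its reverse complement 3 bases apart) and for the TATA box letters TATAAA, each on both strands. RefSeq windows (GRCm38.p6) were matched for 7 of the 9 genes, and those of *Dcn* and *Lum* were not used here. The hexamer was found in the window of *Bgn* alone among the 7, and 16.1% of 32851 windows of all genes hold it. The TATA letters were found in those of *Aspn* and *Ogn*, and 12.4% of all windows hold them. The full palindrome was in none of the 7 and in 3 of all windows. The 3 windows with a match are shown because they are the ones in which the family differs, with the matched letters of either strand in capitals and the 5′ end first. The matches are letters in a window and not measured binding sites, and the TATA matches in *Ogn* overlap each other.
Bgn, chrX:73483351-73483600, plus strand: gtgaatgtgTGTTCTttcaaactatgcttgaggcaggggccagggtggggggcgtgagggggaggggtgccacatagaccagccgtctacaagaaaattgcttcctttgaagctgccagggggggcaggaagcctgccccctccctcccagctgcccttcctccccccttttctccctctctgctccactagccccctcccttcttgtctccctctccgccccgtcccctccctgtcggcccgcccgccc
Aspn, chr13:49544193-49544442, plus strand: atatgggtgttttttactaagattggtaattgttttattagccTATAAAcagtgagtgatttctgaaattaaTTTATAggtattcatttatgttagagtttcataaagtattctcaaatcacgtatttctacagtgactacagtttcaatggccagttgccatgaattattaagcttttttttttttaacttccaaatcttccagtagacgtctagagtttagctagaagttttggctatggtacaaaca
Ogn, chr13:49607765-49608014, plus strand: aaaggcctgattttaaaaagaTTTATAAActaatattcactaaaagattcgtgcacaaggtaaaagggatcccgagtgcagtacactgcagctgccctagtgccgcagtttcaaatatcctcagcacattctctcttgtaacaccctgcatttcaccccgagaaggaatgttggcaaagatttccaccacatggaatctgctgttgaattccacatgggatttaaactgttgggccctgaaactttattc

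The 9 SLRP genes together took 0.397% to 0.735% of the gene reads, whose total was 8268957 in the shallowest library and 13816864 in the deepest. Even the least abundant gene, *Omd*, had 80 to 301 reads per library, so counting error was small beside the spread between mice for every gene of the family. Levels are given as CPM, a gene's reads scaled to one common library size, and all p-values measure the spread between mice of this one experiment. Orchiectomy library 2 stood apart: its smooth muscle markers were the lowest of all 15 libraries (mean log2 CPM 9.27, with 10.00 or more in the other 14) and its fibroblast, mesothelial and leukocyte markers were the highest. That library also held the lowest level of all libraries for 4 of the 9 genes, *Bgn*, *Fmod*, *Ogn* and *Prelp*. Control library 4 held the highest control level of 7 genes, and DHT library 2 held the highest level of the DHT group for 5.

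Compared per length, as CPM per kb of exon, *Bgn* was the most abundant of the 9 in every group, with 580.2 ± 85.1 (SD, n = 5) in controls. *Ogn* (222 ± 56.7), *Prelp* (178 ± 13.3) and *Dcn* (156 ± 28.5) followed in controls, and neighbors in that order overlapped between libraries. *Lum* (56.7 ± 12.5) and *Fmod* (mean 45.9) overlapped each other, and *Aspn* (27.9 ± 4.23), *Podn* (14.2 ± 2.74) and *Omd* (6.25 ± 2.36) came last without overlap. The order was the same after orchiectomy. In the DHT group *Lum* went from the fifth place to the seventh, at 12.3 to 34.6 CPM per kb against 56.2 to 103.8 after orchiectomy alone, below *Fmod* and *Aspn* in the mean, although its libraries overlapped those of *Fmod* (27.9 to 59.8), *Aspn* and *Podn*. The place of *Dcn* depended on the exons counted: with the exons of the basic annotation alone it was second in every group.

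The effect of androgen replacement was read from the DHT group against the orchiectomy group. *Lum*, whose product lumican is a keratan sulfate proteoglycan of collagen fibrils, fell 3.74-fold. *Aspn*, whose product asporin binds collagen and TGF-β, fell 1.44-fold, and no other gene of the family passed the rule given next. A gene was called when its unadjusted p in edgeR's quasi-likelihood test was under 0.01, and the Benjamini-Hochberg adjusted p over all 14121 genes is given for the SLRP genes. By that rule 2 of 9 genes were called, both lower. Over all genes tested 9.72% were called in this comparison, 7.27% lower and 2.46% higher. With an adjusted p under 0.05 the call of *Lum* remained, beside 4.72% of all genes (3.8% lower). The median log2 fold change of the 9 genes was -0.09, beside -0.02 over all genes.

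*Lum* was at 187, 137.5, 243, 254 and 139 CPM in the 5 orchiectomy libraries and at 49.7, 84.7, 56.3, 30.1 and 36.0 CPM in the 5 DHT libraries. Every DHT library lay below every orchiectomy library, and the highest of them, DHT library 2, was still below the lowest control. Groups without overlap were seen in 6.43% of all genes, 4.34% lower with DHT and 2.09% higher. The log2 fold change of *Lum* was -1.90 (SE 0.27, 95% CI -2.48 to -1.33, edgeR adjusted p = 0.00360, range 4.64e-09 to 0.0320 over its alternatives), which placed it at rank 14 of 14121 by p. When each of the 15 libraries was left out in turn it stayed between -2.16 and -1.74 and past the threshold.

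**Figure D1:**
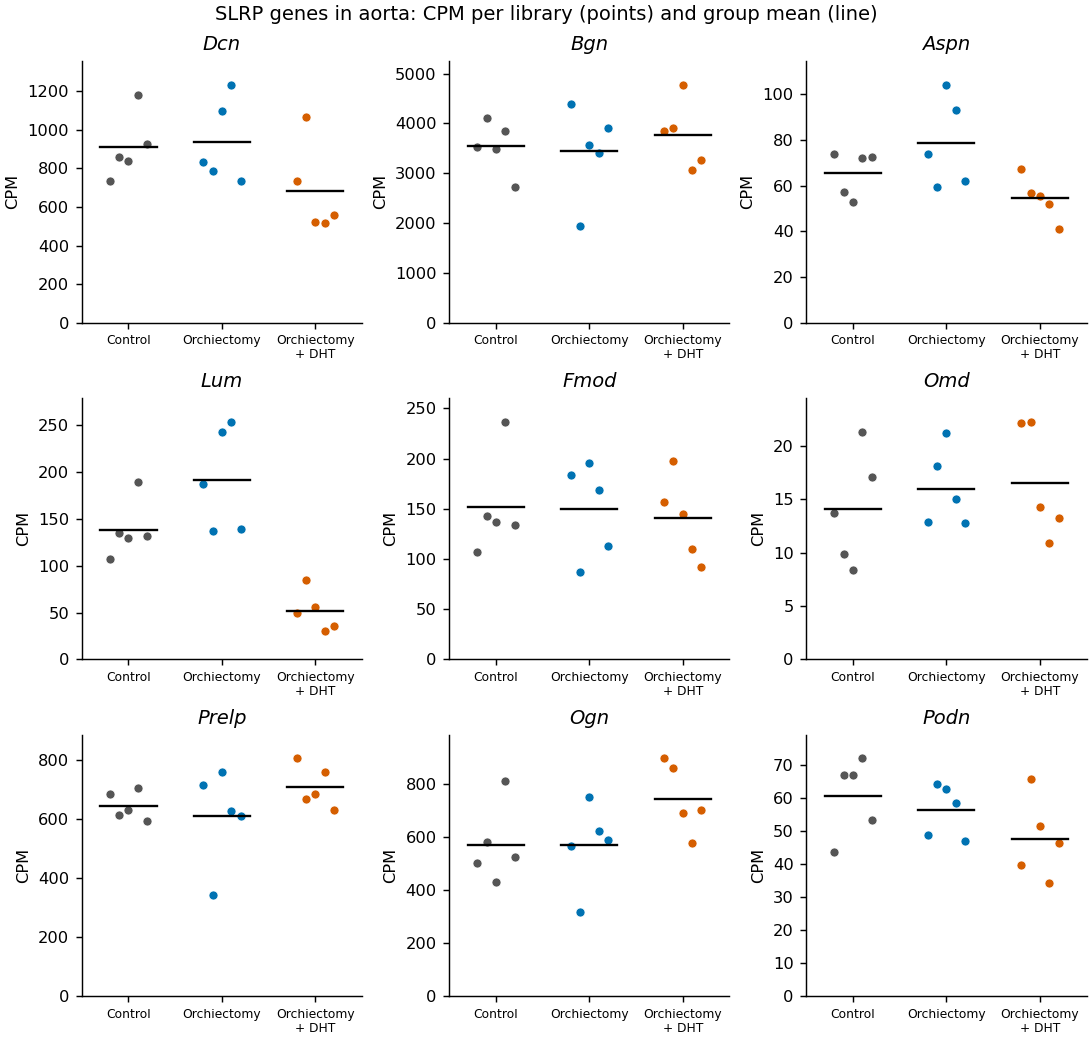
Each panel shows 1 SLRP gene, with the level in CPM on the vertical axis from 0, 1 point per library and a line at the group mean. *Lum* is the one gene whose 5 DHT libraries (30.1 to 84.7 CPM) lie below all control and orchiectomy libraries (107 to 254 CPM).

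Of the first class, *Aspn* was at 74.0, 59.2, 104.0, 93.0 and 62.0 CPM after orchiectomy and at 67.3, 56.7, 55.5, 52.0 and 40.8 CPM with DHT. The groups overlapped, and its log2 fold change was -0.53 (SE 0.17, 95% CI -0.89 to -0.16, edgeR adjusted p = 0.0892). The call lay close to the threshold and was lost in 13 of 21 alternatives. It was lost without control library 3, orchiectomy library 1, 3 or 4, or DHT library 2, 3, 4 or 5 (values -0.54 to -0.38, adjusted p 0.106 to 0.232 in edgeR). *Dcn*, the collagen-binding and TGF-β-binding decorin, was at 832, 784, 1095, 1233 and 734 CPM after orchiectomy and at 737, 1066, 523, 517 and 559 CPM with DHT. Its log2 fold change of -0.46 (95% CI -0.92 to 0.00, edgeR adjusted p = 0.239) did not pass. DHT library 2, where *Dcn* was highest, decided this: without it the value was -0.68 and was called (edgeR adjusted p = 0.0597, range 0.0597 to 0.493 over the alternatives). *Bgn*, which carries chondroitin or dermatan sulfate chains, was at 1942 to 4395 CPM after orchiectomy and 3070 to 4774 CPM with DHT, a log2 difference of 0.13 (95% CI -0.29 to 0.56).

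In the second class *Lum* stood by itself. *Fmod*, which like lumican binds collagen type I fibrils, was at 87.0 to 195.8 CPM after orchiectomy and 92.3 to 197.6 CPM with DHT (log2 difference -0.09, 95% CI -0.65 to 0.47). *Omd*, best known from bone, was at 12.8 to 21.2 CPM and 10.9 to 22.3 CPM (0.05, 95% CI -0.51 to 0.62). *Prelp*, which links basement membranes to collagen, was at 344 to 757 CPM and 630.2 to 805 CPM (0.22, 95% CI -0.14 to 0.57). None of these 3 passed the test, and each interval left out a fall of the size seen for *Lum*.

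In the third class *Ogn*, a regulator of collagen fibril formation, was at 566, 317, 752, 622 and 589 CPM after orchiectomy and at 897, 859, 689, 576 and 701 CPM with DHT. Orchiectomy libraries 1 and 2 lay below the DHT range and the other 3 within it, and the log2 difference of 0.39 (95% CI -0.07 to 0.85, edgeR adjusted p = 0.320) did not pass. *Podn*, whose product podocan is known from vascular smooth muscle, was at 47.0 to 64.2 CPM after orchiectomy and 34.2 to 65.6 CPM with DHT (-0.24, 95% CI -0.61 to 0.13).

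**Figure D2:**
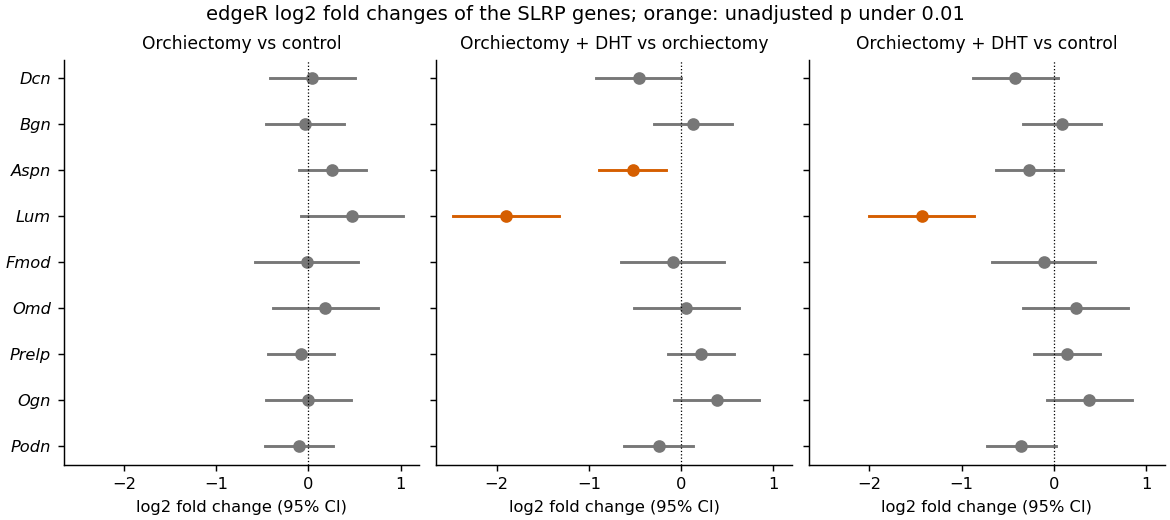
Points are log2 fold changes from edgeR and bars their 95% confidence intervals for the 9 SLRP genes in the 3 comparisons, in orange where the unadjusted p was under 0.01. *Lum* lies at -1.90 and -1.43 in the comparisons with the DHT group, *Aspn* at -0.53 in the first of them, and every other interval includes 0.

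Cell type markers moved in the same comparison. All 6 mesothelial markers fell (*Upk3b* by 2.83 on the log2 scale), with summed levels of 8.85 to 24.1 CPM in the DHT group, 46.7 to 380.4 CPM after orchiectomy and 34.5 to 96.2 CPM in controls. All 5 leukocyte markers fell, with summed levels of 19.2 to 40.0 CPM with DHT and 43.5 to 152.8 CPM after orchiectomy. Of 11 fibroblast markers 5 fell, *Fbln1* (by 0.99), *Mfap5* (by 0.72), *Dpt* (by 0.91), *Serpinf1* (by 0.70) and *Tcf21* (by 2.83), and *Dpep1* rose (0.76). *Tcf21* thus had a larger fall than *Lum*, but its call was lost without orchiectomy library 2 (value -1.47, edgeR adjusted p = 0.133). The summed level of the fibroblast markers was 1231 to 2078 CPM with DHT and 1620.4 to 2513 CPM after orchiectomy. None of the 8 smooth muscle markers was called by edgeR, 5 of 8 had an unadjusted p under 0.05, and their median log2 fold change was 0.43. No marker of these 4 lists was at 0 in any library. Of the other lists, 3 of 5 endothelial markers fell (median -0.53), 3 of 6 skeletal muscle markers rose (median 3.51, and 5 of 6 without orchiectomy library 2), 1 of 5 tested cartilage and tendon markers fell (*Comp*, -1.29), and the median of 6 adipocyte markers was 0.02. In RNA from a whole aorta, fewer cells of a type and less RNA per cell cannot be told apart, and the part of these marker shifts in the level of *Lum* was not tested. Within the orchiectomy group, library 2 had the highest mesothelial level (mean log2 CPM 4.88) and the lowest *Lum* level (137.5 CPM). In the DHT group library 2 had both the highest mesothelial level (1.79) and the highest *Lum* level (84.7 CPM). Both libraries also had the highest fibroblast marker level of their group (7.56 and 7.15). Such single libraries do not show how *Lum* follows any marker list.

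**Figure D3:**
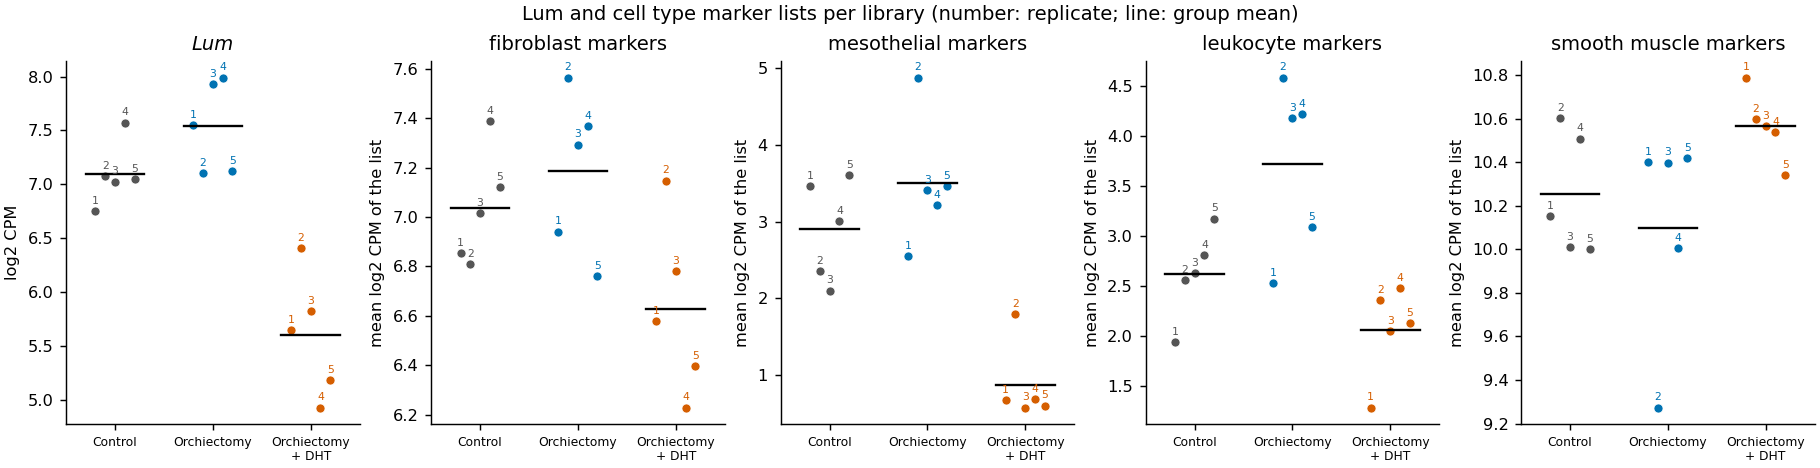
The first panel shows the log2 CPM of *Lum* and the others the mean log2 CPM of the fibroblast, mesothelial, leukocyte and smooth muscle marker lists, with 1 numbered point per library (the replicate number) and a line at the group mean. The mesothelial level was 0.58 to 1.79 in the DHT group and 2.10 to 4.88 in the other groups, and orchiectomy library 2 lies lowest for smooth muscle (9.27).

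Each gene's log2 CPM was also taken relative to the mean log2 CPM of the 11 fibroblast markers in the same library. Groups were compared by an exact two-sided permutation test, whose smallest p with 5 against 5 libraries is 0.0079. The markers did not move together for DHT against orchiectomy (*Fbln1* -0.99, *Dpep1* 0.76), so their mean is not a measure of fibroblast number. The marker mean itself had a median of 6.58 with DHT, 7.29 after orchiectomy and 7.02 in controls, with overlap between libraries. A lower reference raises every gene of the DHT group on this scale. *Lum* was lower with DHT than after orchiectomy on this scale, by 1.39 (-1.03 ± 0.23 against 0.35 ± 0.47, SD, n = 5 each, exact permutation p = 0.0079). *Ogn* was higher by 0.98 (2.89 ± 0.27 against 1.91 ± 0.68, n = 5 each, exact permutation p = 0.0079), with all DHT libraries above all orchiectomy libraries. These 2 of 9 genes were called at p under 0.01, as were 2.87% of all genes, 0.63% of them lower and 2.24% higher. Both adjusted p-values over all genes tested by this exact permutation test were 0.144. Leaving out any 1 DHT library lost both calls (exact permutation p = 0.0159), although the groups still did not overlap. *Dcn*, in contrast to *Lum*, differed by 0.07 (exact permutation p = 0.619), and *Aspn* by 0.05 (exact permutation p = 0.841). *Aspn* was thus not called on this scale.

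**Figure D4:**
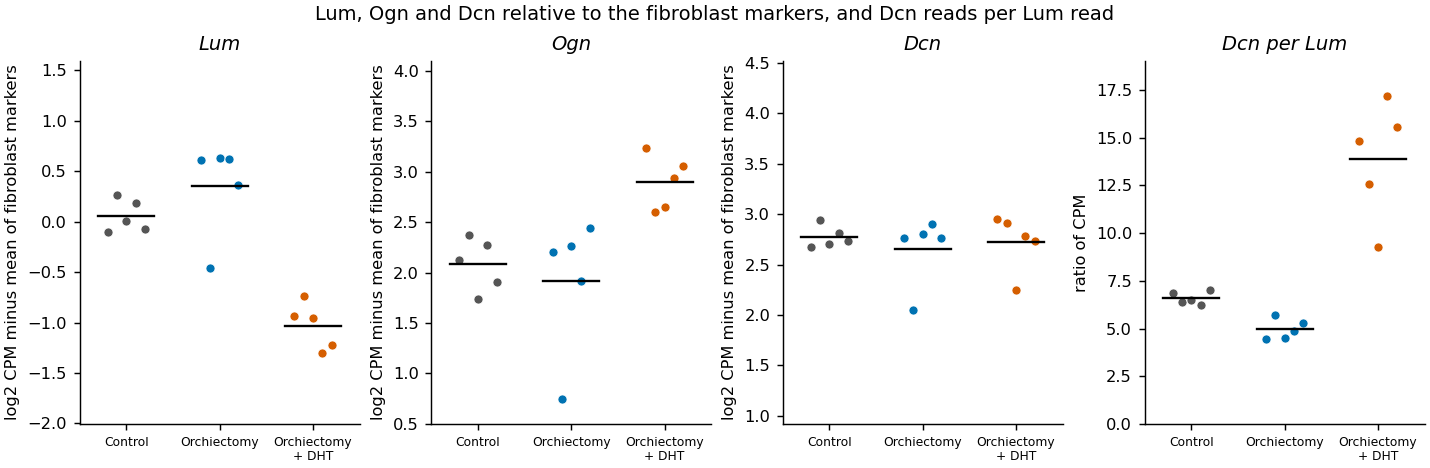
The first 3 panels give the log2 CPM of *Lum*, *Ogn* and *Dcn* minus the mean log2 CPM of the 11 fibroblast markers, each over the same span of the vertical axis, and the last gives *Dcn* CPM per *Lum* CPM from 0, with 1 point per library and a line at the group mean. *Lum* is lowest and *Ogn* highest in the DHT group without overlap, and *Dcn* per *Lum* is 9.29 to 17.2 there against 4.45 to 7.05 in the other groups.

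Ratios within a library do not depend on library size, and those of the 36 pairs of SLRP genes were compared in the same way after the first results had been seen. For the chromosomal neighbors *Dcn* and *Lum*, *Dcn* reads per *Lum* read were 4.45, 5.70, 4.50, 4.85 and 5.29 after orchiectomy and 14.8, 12.6, 9.29, 17.2 and 15.5 with DHT. No library of the 2 groups overlapped, and the log2 ratio differed by 1.45 (exact permutation p = 0.0079). *Lum* was lower relative to each of the other 8 genes, by 1.44 (relative to *Aspn*) to 2.37 (relative to *Ogn*), without overlap in 8 of 8 pairs. Relative to 78% of all other genes tested, *Lum* was likewise lower without overlap, a share against which the count of pairs is to be read. Among the 28 pairs without *Lum*, 4 did not overlap (exact permutation p = 0.0079 each), while 6.84% of all pairs of the 14121 genes did not. The 4 pairs are not independent, since 3 of them hold *Ogn*. *Ogn* was higher relative to *Aspn* by 0.93, to *Dcn* by 0.91 and to *Podn* by 0.69, and *Prelp* was higher relative to *Aspn* by 0.77.

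The DHT group against controls compares replaced with gonadal androgen. *Lum* fell here too, 2.70-fold, and was the only 1 of 9 genes called, while over all genes 3.53% were called, 2.01% lower and 1.52% higher. Its adjusted p was also under 0.05, as for 0.262% of all genes (0.149% lower). It was at 107, 135, 129.9, 190.0 and 132 CPM in controls, so that again no DHT library (30.1 to 84.7 CPM) reached the lowest control. Of all genes 3.58% did not overlap in this comparison, 1.79% lower and 1.78% higher. The log2 fold change was -1.43 (SE 0.27, 95% CI of the fold 1.82 to 4.01, edgeR adjusted p = 0.0432, range 6.72e-05 to 0.135 over its alternatives), at rank 24 of 14121 by p. The median over the 9 genes was -0.11, beside -0.0029 over all genes. The control group is shared by this comparison and the one with orchiectomy, and the DHT group by this one and the preceding one, so they are not independent.

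The other 8 genes were not called against controls. *Dcn*, at 737, 860.5, 841, 1180.0 and 929 CPM in controls, differed by -0.42 (95% CI -0.88 to 0.04, edgeR adjusted p = 0.467) and *Podn*, at 43.6 to 71.9 CPM, by -0.35 (95% CI -0.72 to 0.02, edgeR adjusted p = 0.449). DHT library 2 decided both: without it *Dcn* was at -0.64 (edgeR adjusted p = 0.228, range 0.228 to 0.763) and *Podn* at -0.50 (edgeR adjusted p = 0.289, range 0.289 to 0.722). With *Lum* 3 of 9 genes were then called, beside 474 of 14252 genes in that fit, 297 lower and 177 higher. *Ogn*, at 431 to 812 CPM in controls, differed by 0.39 (95% CI -0.07 to 0.84, edgeR adjusted p = 0.501). *Aspn* differed by -0.27 (95% CI -0.63 to 0.09), *Omd* by 0.24 (-0.33 to 0.81), *Prelp* by 0.14 (-0.22 to 0.50), *Fmod* by -0.11 (-0.67 to 0.45) and *Bgn* by 0.09 (-0.33 to 0.52).

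Relative to fibroblast markers, *Lum* was lower than in controls by 1.09 (-1.03 ± 0.23 against 0.06 ± 0.16, SD, n = 5 each, exact permutation p = 0.0079). *Ogn* was higher by 0.81 (2.89 ± 0.27 against 2.08 ± 0.26, n = 5 each, exact permutation p = 0.0079) and *Omd* by 0.67 (-2.61 ± 0.31 against -3.28 ± 0.41, n = 5 each, exact permutation p = 0.0079). These 3 of 9 genes stood beside 3.54% of all genes called in the same way, 3.29% higher and 0.255% lower, and their adjusted p over all genes tested by the exact permutation test was 0.176. The call of *Omd* was lost in 7 of 13 alternatives: with the median of the marker list, and without control library 2 or 3 or DHT library 1, 2, 4 or 5 (exact permutation p at most 0.0317). Without DHT library 2 *Prelp* was called in its place. In this comparison 3 of 11 fibroblast markers fell (*Fbln1* by 0.74, *Pi16* by 0.51, *Mfap5* by 0.45), 5 of 6 mesothelial markers fell (*Upk3b* by 2.53), as did 3 of 5 endothelial markers, and of 6 skeletal muscle markers *Myh2* rose (5.26, edgeR adjusted p = 0.0929). By edgeR 0 of 5 leukocyte and 0 of 8 smooth muscle markers were called, and 3 of each list had an unadjusted p under 0.05. *Lum* was lower relative to each of the other 8 genes by 1.04 (relative to *Dcn*) to 1.90 (relative to *Ogn*), without overlap in 7 of 8 pairs. The same was so relative to 69.7% of all other genes. Of the 28 pairs without *Lum* 3 did not overlap, beside 3.98% of all pairs of genes. *Dcn* reads per *Lum* read were 6.87, 6.38, 6.47, 6.21 and 7.05 in controls, a narrow range that lay between those of the other groups.

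Orchiectomy against control asks what removal of gonadal androgen did under Aldo-salt. None of the 9 SLRP genes was called by edgeR, 0 of 9 had an unadjusted p under 0.05, and DESeq2 and limma-voom also called 0 of 9, while 3.22% of all genes were called, 2.08% higher and 1.13% lower. With an adjusted p under 0.05 edgeR called 0 of 14121 genes (smallest adjusted p 0.0960), although 1692 had an unadjusted p under 0.05, and at an unadjusted p under 0.01 DESeq2 called 620 and limma-voom 461. Groups did not overlap for 1.51% of all genes, 0.991% higher and 0.517% lower, and for none of the 9. *Lum* had the largest difference of the 9 genes, 0.47 (SE 0.26, 95% CI -0.09 to 1.03, edgeR adjusted p = 0.472), with 2 orchiectomy libraries (243 and 254 CPM) above the control range and 3 (137.5, 139 and 187 CPM) inside it. *Aspn* differed by 0.26 (95% CI -0.10 to 0.62, edgeR adjusted p = 0.546). The other 7 genes differed by -0.11 (*Podn*) to 0.18 (*Omd*), with intervals that reached from -0.58 (*Fmod*) to 0.75 (*Omd*). These data do not exclude differences inside these intervals.

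Within libraries, 2 of the 36 pairs of SLRP genes did not overlap between these groups, among them the neighbors *Dcn* and *Lum*. Their ratio was 4.45 to 5.70 after orchiectomy and 6.21 to 7.05 in controls (log2 difference -0.42, exact permutation p = 0.0079, not adjusted over the pairs). *Lum* was higher relative to all 8 other genes, by 0.21 to 0.57, but did not overlap only against *Dcn* (0.42) and *Fmod* (0.48), and relative to 0.956% of all other genes it was higher without overlap (lower for 0.0212%). Of the 28 pairs without *Lum* 0 did not overlap, beside 1.64% of all pairs of genes. Relative to the fibroblast markers *Lum* differed by 0.30 (0.35 ± 0.47 against 0.06 ± 0.16, n = 5 each, exact permutation p = 0.222), and none of the 9 genes was called, beside 0.545% of all genes (0.432% higher, 0.113% lower). Orchiectomy library 2 decided that value, since without it *Lum* was higher by 0.50 (exact permutation p = 0.0079). In this comparison 3 of 5 leukocyte markers rose (*Cd79a* by 3.44, *Ptprc* by 1.24 and *Cd3e* by 1.87, edgeR adjusted p 0.188 to 0.288), and by edgeR 0 of 11 fibroblast, 0 of 6 mesothelial and 0 of 8 smooth muscle markers were called (2, 1 and 0 had an unadjusted p under 0.05). *Lep* of 6 adipocyte and *Myh4* of 6 skeletal muscle markers fell (edgeR adjusted p 0.268 and 0.297). Without orchiectomy library 2 only *Cd79a* of the leukocyte markers was called, with *Ptprc* at 1.02 and *Cd3e* at 1.62.

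Genes whose pattern over the 15 libraries was most like that of each SLRP gene were found by the root mean square difference of centered log2 CPM, where a smaller value means a closer match. Nearest to *Lum* were *Gpc3*, a glypican, and *Col14a1*, the fibril-associated collagen XIV chain (0.349 and 0.350, against a spread of *Lum* itself of 0.96 SD). *Gpc3* and *Col14a1* had log2 fold changes of -1.66 and -1.68 for DHT against orchiectomy. The nearest SLRP gene to *Lum* was *Dcn*, at 0.643, farther than for any other gene of the family. *Bgn* and *Prelp* were each other's nearest SLRP genes (0.208), as were *Dcn* and *Podn* (0.275), and *Ogn* was nearest to *Prelp* (0.250), not to its chromosomal neighbors *Omd* (0.406) and *Aspn* (0.469). Outside the family *Bgn* was nearest to *Dstn* and *Mfge8*, *Ogn* to *Gucy1a1* and *Tmtc1*, *Prelp* to *Tshz1* and *Nacc2*, and *Dcn* to *Medag* and *Serping1*. *Fmod* was nearest to *Gdf10* and *Adamts2*, *Omd* to *Col4a3* and *Amer1*, *Aspn* to *Rbpj* and *Dse*, and *Podn* to *Lpar1* and *Dck*.

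Genes related to the family were called by the same unadjusted rule. Of the genes called in the related lists and marker lists, 40 of 49 had an adjusted p under 0.05 for DHT against orchiectomy. The counts were 4 of 28 for DHT against control and 0 of 11 for orchiectomy against control. Over all genes tested, called genes with an adjusted p under 0.05 were 666 of 1373, 37 of 498 and 0 of 454 in the same order. Among 9 further SLRP genes 6 had enough reads to test. *Epyc*, the epiphycan gene that follows *Lum* and *Kera* on chromosome 10, was at 0.885 to 3.93 CPM after orchiectomy and at most 0.769 CPM with DHT (log2 fold change -2.93, SE 0.77, edgeR adjusted p = 0.0422). Against controls it also fell (-2.34, SE 0.78, edgeR adjusted p = 0.275). Of its exon bases 40.6% are shared with the antisense gene *Gm10754*. *Chad*, the chondroadherin gene, was at 166.9 CPM in orchiectomy library 2, at 0.969 to 4.54 CPM in the other 4, at 2.19 to 3.89 CPM in controls and at 0.620 to 1.89 CPM with DHT. Its calls rested on that library: the difference of orchiectomy against control was 3.64 with it and -0.17 without it (edgeR adjusted p = 0.297 and 0.936), and that of DHT against orchiectomy was -4.78 and -0.97 (adjusted p = 0.0446 and 0.202). *Optc*, the opticin gene beside *Prelp*, rose with DHT against controls (78.0 ± 20.4 against 47.4 ± 10.6 CPM, n = 5, log2 fold change 0.72, edgeR adjusted p = 0.278). *Ecm2*, next to *Aspn*, was at 100.4 to 264 CPM after orchiectomy and 109 to 200.2 CPM with DHT and was not called. *Kera*, the keratocan gene between *Lum* and *Epyc*, had at most 1 read in any library.

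The sugar chains of SLRPs are built by dedicated enzymes. Of 30 tested genes of glycosaminoglycan synthesis 5 fell with DHT against orchiectomy and none rose, with a median of -0.19. The 5 were *Ugdh*, which makes the UDP-glucuronate precursor (-0.57, SE 0.09, edgeR adjusted p = 0.00777), the sulfotransferases *Chst7* (-0.98) and *Chst2* (-0.67), *Papss1*, which makes the sulfate donor (-0.34), and the dermatan sulfate epimerase *Dse* (-0.55). *Chst2* (0.55, edgeR adjusted p = 0.285) and *Chst14* (0.38, adjusted p = 0.294) rose after orchiectomy, and *Ugdh* (-0.37) and *Chst7* (-0.65) fell with DHT against controls.

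Of 10 tested enzymes that cut or process SLRPs and fibrillar collagens 3 fell with DHT against orchiectomy. They were the gelatinase *Mmp2* (-0.96, SE 0.15, edgeR adjusted p = 0.00676), the procollagen C-proteinase enhancer *Pcolce2* (-1.09) and the stromelysin *Mmp3* (-0.81), and all 3 fell against controls too, with *Adamts4* (-0.83). *Mmp2* rose after orchiectomy (0.47, edgeR adjusted p = 0.297), a call lost without orchiectomy library 2 (0.38). Of 13 tested collagen partners 3 fell with DHT against orchiectomy: *Col14a1* (mean 97.9 against 313.6 CPM), *Col12a1* (-1.15) and the low *Col11a1* (-2.06). *Col12a1* (-1.19) and *Col14a1* (-1.27) fell against controls, and *Col11a1* rose after orchiectomy (2.22, edgeR adjusted p = 0.288). Without orchiectomy library 2 both calls of *Col11a1* were lost (-0.86 and 1.03), and for DHT against orchiectomy 4 of 13 collagen partners fell, *Col14a1*, *Col12a1*, *Col1a1* and *Col3a1*. The median of the collagen list was -0.39 against orchiectomy.

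Among 9 tested growth factors that SLRPs can bind, *Bmp6* (-0.99 and -1.01) and *Bmp4* (-0.94 and -1.02) fell with DHT against orchiectomy and against controls, and *Tgfb1* rose after orchiectomy (0.31, edgeR adjusted p = 0.285), a call lost without orchiectomy library 2 (0.27). Of 16 receptors of the family 6 fell with DHT against orchiectomy, led by *Tlr2* (-0.75), *Cd44* (-0.82), *P2rx7* (-0.74) and *Met* (-1.28), the first 3 of which leukocytes also express, with a median of -0.34. Without orchiectomy library 2 the call of *Met* was lost (-0.81), 5 receptors fell and the median was -0.13. Of the 16 receptors edgeR called 0 for orchiectomy and 0 for DHT against controls (medians 0.16 and -0.08, 3 and 5 with an unadjusted p under 0.05). Of 13 other matrix proteoglycans *Srgn* (-0.94), *Esm1* (-0.93) and *Prg4* (-0.92) fell and *Ncan* rose (3.67) with DHT against orchiectomy, and the same 4 were called against controls in the same directions. Without orchiectomy library 2 *Prg4* (-0.87 against orchiectomy) and *Ncan* (2.30 against controls) each lost a call. The shares called in these lists are to be read beside the 9.72% and 3.53% of all genes called in the comparisons with the DHT group.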

How the data were processed

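RNA-Seq of whole aortas from 15 mice, 5 per group, was analyzed, with groups and replicate numbers as labelled. For each poly(A)-selected library the authors deposited whole-number counts of reads by gene symbol, not normalized. The submitters' processing notes name STAR, Cufflinks, DESeq2 and mm10 without versions or roles. The counting program, annotation and strandedness are not given in the sources used here. Entries that name no gene were left out (reads in no gene 6.26% to 14.4% of a library, ambiguous 1.34% to 1.97%).

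In R 4.3.3, edgeR 4.0.16 kept genes by filterByExpr (at least 10 reads, at least 15 in total), scaled libraries by TMM and ran its quasi-likelihood test over 3 groups and 15 libraries without covariates, with calls at an unadjusted p under 0.01, the cutoff the study applied to its RNA-Seq genes. CPM use TMM library sizes, and log2 CPM a prior count of 3. The script was tested on simulated data. Levels relative to fibroblast markers were compared by exact permutation tests and adjusted over all genes tested in place of the 27 tests first planned, since the genes and lists were chosen with earlier results of these data known. Named genes outside the family are up to 4 called genes per list and comparison, smallest p first, and the 2 nearest genes by pattern. *Tcf21*, *Dpep1*, *Dse*, *Col1a1* and *Col3a1* fall outside this rule and were named after their values were seen. The lists were also tested without orchiectomy library 2, an alternative added after the data were examined. Alternatives were DESeq2 1.42.0, RLE size factors, no filter, only 2 groups, a replicate block, limma-voom 3.58.1, another prior count or marker median, and leaving out each library. For genes with few reads (*Epyc*, *Kera*) counting error is large.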

Additional observations from a re-analysis of the deposited data

Results flagged for a closer look

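*Prelp* in orchiectomy library 2 lay far from the other 4 libraries of its group, at a log2 CPM of 8.43 where the nearest was 9.25. Its gap made up 0.726 of the group's range, above Dixon's critical value of 0.71, in 1 of 27 sets of 5 libraries examined, and chance gives such a value in about 1 of 20 sets. The same library had the lowest smooth muscle markers (mean log2 CPM 9.27). Without it the *Prelp* difference of orchiectomy against control stayed uncalled, as it did without any other library.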

How the results depend on the processing

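*Lum* kept its direction and its side of the threshold under all 21 alternatives in both comparisons with the DHT group (log2 fold change -2.16 to -1.64 against orchiectomy and -1.69 to -1.26 against controls). The count of 2 SLRP genes called against orchiectomy became 1 with an adjusted p under 0.05, RLE size factors, no filter beyond 1 count, only the 2 groups, the replicate block and limma-voom, where *Aspn* was lost, and was 1 to 2 when each library was left out. The cause was not tested. Against controls the count of 1 became 2 under limma-voom, with *Ogn* added (0.48, adjusted p = 0.122 in limma-voom), and was 1 to 3 when each library was left out. It stayed at 0 for orchiectomy against control.

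Relative to fibroblast markers the counts were 0 to 1, 0 to 2 and 2 to 3 for orchiectomy against control, DHT against orchiectomy and DHT against control when libraries were left out. Without orchiectomy library 2 the 1 was *Lum*. The 0 arose when any DHT library was removed, where *Lum* and *Ogn* did not overlap but the exact permutation p was 0.0159.

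Replicate numbers were not taken to pair mice, since correlations of same-numbered libraries ranged from -0.47 to 0.46 and 5 of 15 exceeded 0.1. With the replicate block *Lum* was at -1.91 and -1.45, and *Aspn* at -0.52 (adjusted p = 0.144 in edgeR).

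Small differences changed sign. For orchiectomy against control, *Dcn* was at -0.00078 with no filter and -0.028 under limma-voom, *Bgn* and *Ogn* at 0.12 under limma-voom, and leaving out each library gave -0.11 to 0.15 (*Dcn*), -0.16 to 0.095 (*Bgn*), -0.16 to 0.20 (*Fmod*), -0.15 to 0.16 (*Ogn*) and -0.19 to 0.058 (*Prelp*). For DHT against orchiectomy *Fmod* was at 0.094 under limma-voom, and leaving out each library gave -0.25 to 0.051 (*Fmod*), -0.0018 to 0.25 (*Bgn*) and -0.075 to 0.21 (*Omd*). Against controls *Fmod* was at 0.075 under limma-voom, and leaving out each library gave -0.27 to 0.11 (*Fmod*) and -0.013 to 0.15 (*Bgn*). Over all genes the calls numbered 454, 1373 and 498 in the 3 comparisons, with 752 for the first with no filter, 285 with the replicate block and 297 with only the 2 groups, and 992 for the third under limma-voom.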
